A study of Oryzias latipes with 6 samples.

Results

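A set of 136 genes, out of 20459 gene IDs in the count table, combined a strong loss in medaka embryos knocked out for SEDL with uneven levels across the wild type pools. The genes were chosen by their own CPM (counts of a gene scaled by the total of its library, so that every library has the same sum). Each had a mean of at least 2 CPM in wild type, a knockout mean of at most 1/4 of the wild type mean, and a highest wild type pool of at least 2 times the lowest. Of 16572 genes with a wild type mean of at least 2 CPM, 416 met the condition on loss, and 136 of these also met the condition on unevenness. The other 280, with an even wild type, serve below as the nearest comparison. Because these values made the selection, the size of the loss and the existence of a spread are description here and carry no test. The rule did not use which wild type pool was low, the order of the knockout pools, or, in the selections made on fewer libraries below, the values of the libraries left out.

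The libraries came from whole embryos of the Cab strain of medaka (Oryzias latipes) at stage 40 of the Iwamatsu series. Of the 6 RNA-seq libraries, 3 came from pools of wild type embryos and 3 from pools of embryos labelled as knocked out for SEDL, all untreated and of undetermined sex. The sources used here do not give the knockout allele, the number of embryos in a pool or whether pools came from separate clutches, so the spread between pools may be technical as well as biological. Library totals ran from 18499107 to 23393540 counts.

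SEDL is a former name of TRAPPC2, which encodes sedlin, an adaptor subunit of the TRAPP complexes. These complexes act on small GTPases of the secretory pathway, between the endoplasmic reticulum and the Golgi. In human cells sedlin is known for its part in the export of procollagen, whose large molecules need special handling at the sites where cargo leaves the reticulum. Loss of the human gene causes a late-onset skeletal dysplasia of the spine and epiphyses. The table gives Ensembl IDs without symbols and 0 of them matched a symbol in the reference table, so the roles of the 136 genes, the level of the targeted gene and the markers of embryonic tissues were not analysed here. CPM is not corrected for gene length, so the ranks used below order genes by reads and not by number of transcripts.

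Wild type replicate 1 was the low pool. It held the lowest of the 3 wild type values in 126 of the 136 genes (92.6%), against 34.4% of the 16572 genes with a wild type mean of at least 2 CPM. Replicate 2 was lowest in 4 genes and replicate 3 in 6. The median CPM over the genes, taken in each pool separately, was 13.1 in replicate 1, 28.7 in replicate 2 and 27.9 in replicate 3. Relative to the mean of the other 2 pools, replicate 1 stood at a median of 0.437 (quartiles 0.350 and 0.512), and in 67 genes it was at 0.5 or less of both. These genes can move together, so the 136 values are not 136 separate observations of a difference between pools, and each pool is 1 library.

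The other 2 wild type pools were much closer to each other. Replicates 2 and 3 lay within 1.5-fold of each other in 94 of the 136 genes and were at least 2-fold apart in 12. Replicate 2 was the highest pool in 78 genes and replicate 3 in 55. Without wild type replicate 1 the same rule, applied to the remaining 5 libraries, gave 12 genes instead of 136, of which 11 were members. Without wild type replicate 2 the rule gave 98 genes, and without wild type replicate 3 it gave 96. The unevenness of the set therefore rests mostly on wild type replicate 1, and the main counts are given with and without that library.

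**Figure D1:**
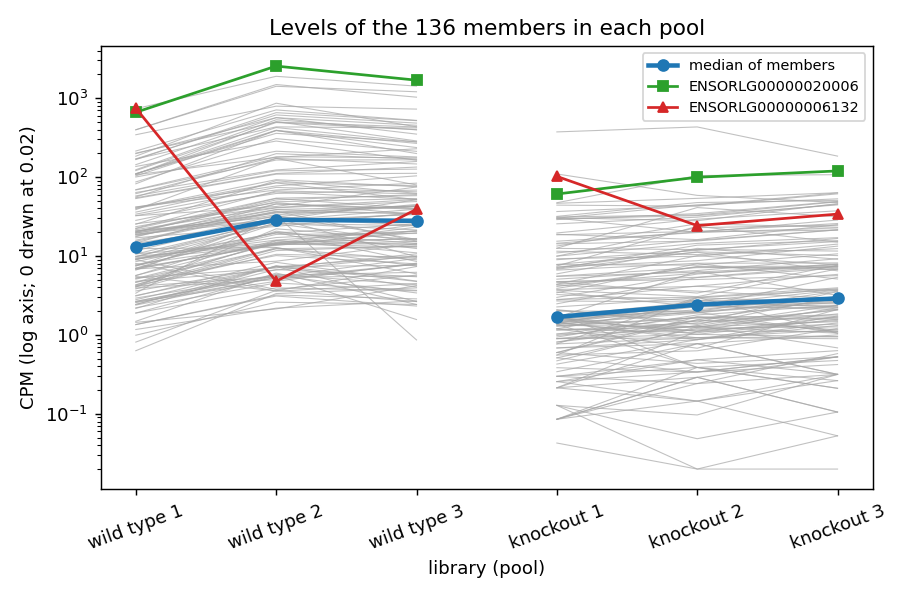
CPM of each of the 136 genes in the 6 libraries on a log axis, 1 grey line per gene and genotype. Blue marks the median over the genes in each library, and green and red mark 2 named genes (values of 0 are drawn at 0.02). The median is 13.1 CPM in wild type replicate 1, 28.7 and 27.9 in replicates 2 and 3, and between 1.69 and 2.90 in the knockout pools.

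The gene with most wild type reads showed the common pattern. ENSORLG00000020006 had 661 CPM in wild type replicate 1, 2546 in replicate 2 and 1687 in replicate 3, and 61.0, 99.4 and 119.55 CPM in knockout replicates 1, 2 and 3. Every wild type pool lay above every knockout pool, with the lowest wild type value 5.53 times the highest knockout value, and replicate 1 was the lowest pool in both genotypes. The mean fell from 1632 ± 943 to 93.3 ± 29.7 CPM (SD, n = 3 each). In the edgeR fit to the whole table this was a log2 fold change of -3.99 (standard error 0.59).

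Other genes of high read level followed the same order of the wild type pools, while their order of the knockout pools varied. Among the first 10, the genes ranked 4, 8 and 9 shared the knockout order of the first gene. Those ranked 2, 3, 5, 6, 7 and 10 did not. The third by wild type CPM had 397, 1412 and 1204 CPM in wild type replicates 1 to 3 and 12.6, 41.1 and 31.5 CPM in knockout replicates 1 to 3. The seventh had 214, 709 and 522 CPM in wild type and 11.5, 10.4 and 12.4 CPM in the knockout. Its wild type pools thus differed 3.32-fold while its knockout pools differed 1.19-fold. The second by wild type CPM was the least reduced of the first 10, with 734, 1889 and 1420 CPM in wild type and 373, 431 and 184 CPM in the knockout. Here wild type replicate 1 came within 1.70-fold of the highest knockout pool.

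All 10 genes of highest wild type CPM, and 19 of the first 20, had the order replicate 1 below replicate 3 below replicate 2. Among the first 10, wild type replicate 1 was at 0.213 to 0.435 of replicate 2 and replicate 3 at 0.503 to 0.918 of it. Their mean loss ranged from 4.09-fold to 42.1-fold with a median of 17.6-fold. The exception among the first 20 was ENSORLG00000006132, described below.

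The order of replicates 2 and 3 changed with read level. Among 18 genes with a wild type mean of 256 CPM or more, replicate 2 was the highest and replicate 1 the lowest in 17, and none had replicate 3 as the highest. Of 21 genes at 64 to 256 CPM, 13 had that order and 8 had replicate 3 highest with replicate 1 lowest. At 16 to 64 CPM these numbers were 17 and 20 of 39 genes, at 4 to 16 CPM 17 and 23 of 46, and at 2 to 4 CPM 8 and 3 of 12. The median ratio of replicate 3 to replicate 2 was 0.770 at 256 CPM or more, 0.855 at 64 to 256, 1.06 at 16 to 64, 1.04 at 4 to 16 and 0.851 at 2 to 4 CPM. Replicate 1 was at a median of 0.272 of replicate 2 in the class of highest read level and between 0.428 and 0.449 in the other 4 classes.

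The 2 frequent orders also differed in depth of loss. The 72 genes with replicate 2 highest and replicate 1 lowest had a median loss of 9.94-fold and a median wild type spread of 2.89-fold. In the 54 genes with replicate 3 highest and replicate 1 lowest these medians were 6.30-fold and 2.32-fold. The wild type values enter both measures, so the contrast between the 2 orders is description only. The 72 and 54 genes were not matched for read level, with median wild type means of 36.4 and 17.4 CPM.

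**Figure D2:**
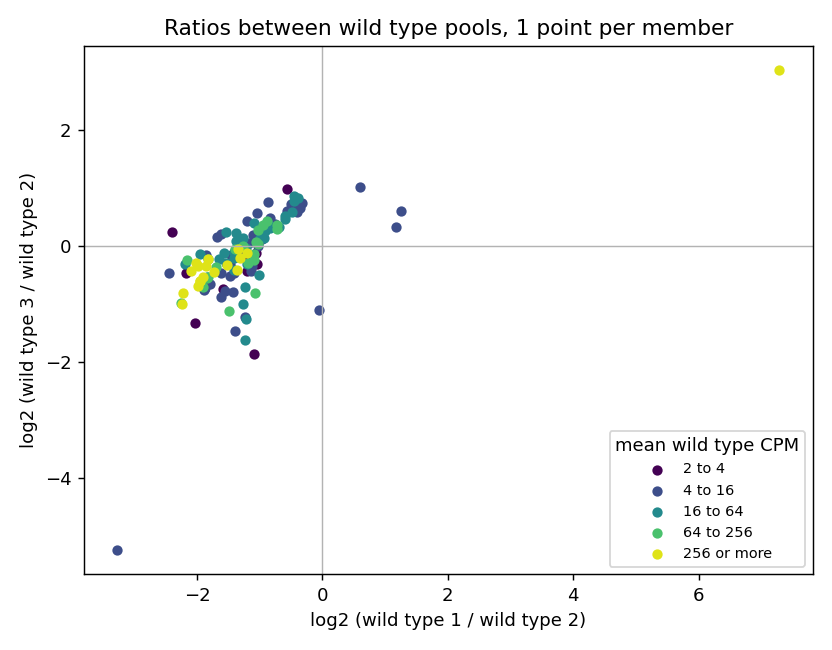
Log2 ratio of wild type replicate 1 to replicate 2 (horizontal axis) and of replicate 3 to replicate 2 (vertical axis), 1 point per gene, coloured by mean wild type CPM. Nearly all points lie left of 0 on the horizontal axis, and those of 256 CPM or more group at a median replicate 3 to replicate 2 ratio of 0.770; the point far to the right is ENSORLG00000006132.

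Most of the genes had a similar profile across the wild type pools. On a log2 scale centred on each gene's own mean over the 3 wild type pools, the median profile was -0.78 in replicate 1, 0.48 in replicate 2 and 0.40 in replicate 3. In 102 of the 136 genes (75.0%) every pool lay within 0.5 of that profile. Among all 16571 genes with counts in each wild type pool the same was true of 8.48%. The share among the 136 is in part set by the rule, which asked for a spread that 750 of the 16572 genes (4.53%) had. The profile was also taken from these same genes, so the 2 shares are description and not a test.

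Wild type pools that took no part in the choice also lay above replicate 1. Applied to replicate numbers 1 and 3 alone, the rule chose 100 genes, 97 of them with wild type replicate 1 below replicate 3. Wild type replicate 2, not used for that choice, was above replicate 1 in 95 of the 97 and at least 2 times replicate 1 in 62 (63.9%), with a median ratio of 2.42. Over all 16572 genes 1.31% had replicate 2 at least 2 times replicate 1. Applied to numbers 1 and 2, the rule chose 101 genes, 97 with replicate 1 below replicate 2, and the unused wild type replicate 3 was above replicate 1 in 92 of these and at least 2 times replicate 1 in 66 (68.0%), against 1.51% of all genes.

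A low value of replicate 1 had been chosen in these genes, which by itself raises such ratios. A closer comparison is with genes chosen for the same minimum gap between wild type pools but not lowered 4-fold. Where replicate 3 was at least 2 times replicate 1 without that loss, replicate 2 was at least 2 times replicate 1 in 43 of 156 genes (27.6%), with a median ratio of 1.68. Where replicate 2 was at least 2 times replicate 1 without that loss, replicate 3 was so in 39 of 117 (33.3%), with a median ratio of 1.78. The lowered and other genes were not matched for the size of the gap or for read level. The difference between them was not tested, since each pool is 1 library.

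Uneven wild type levels and a strong loss met mostly where replicate 1 was low. Among all 750 genes with a wild type spread of at least 2-fold, whatever their change, replicate 1 was lowest in 334, replicate 2 in 224 and replicate 3 in 192. Of these, 126 (37.7%), 4 (1.79%) and 6 (3.12%) were lowered at least 4-fold in the knockout. Conversely the knockout mean was above the wild type mean in 35, 79 and 135 genes of those 3 groups (10.5%, 35.3% and 70.3%). The same libraries give both measures, so these shares are description.

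The knockout pools, whose order the rule did not use, also had replicate 1 lowest most often. This held for 89 of the 136 genes (65.4%), against 32.7% of the 16572 genes. Knockout replicate 3 was the highest pool in 88 genes (64.7%, against 46.9% of the 16572) and replicate 2 in 34. In wild type replicate 2 was the highest in 78 (57.4%, against 29.6%) and replicate 3 in 55. Replicate 1 was lowest in both genotypes in 86 genes (63.2%), against 17.8% of all 16572 genes. Part of this gap comes from how often wild type replicate 1 was lowest in the 136. Where it was lowest, knockout replicate 1 was lowest too in 68.3% of 126 genes, against 51.6% of 5702 genes over the whole table. Same-numbered libraries deviated together across all genes, so the knockout order is not independent of the wild type order.

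The shortfall of replicate 1 was smaller in the knockout than in wild type. Relative to the other 2 knockout pools, knockout replicate 1 stood at a median of 0.705 (quartiles 0.553 and 0.904), where wild type replicate 1 stood at 0.437. The median knockout profile on the centred log2 scale was -0.33, 0.02 and 0.31 for replicates 1, 2 and 3, over the 134 genes with counts in each knockout pool. Every pool lay within 0.5 of that knockout profile in 82 of the 134 (61.2%), against 83.2% of all genes with counts in each knockout pool. The spread between knockout pools was below that between wild type pools in 108 of the 136 genes, with medians of 1.87-fold and 2.59-fold. Since the rule set a minimum for the wild type spread and none for the knockout, this comparison is not a test. Counts in the knockout were low, with a median of 39 to 55 per gene and library, so counting error takes a larger part in the knockout spread.

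**Figure D3:**
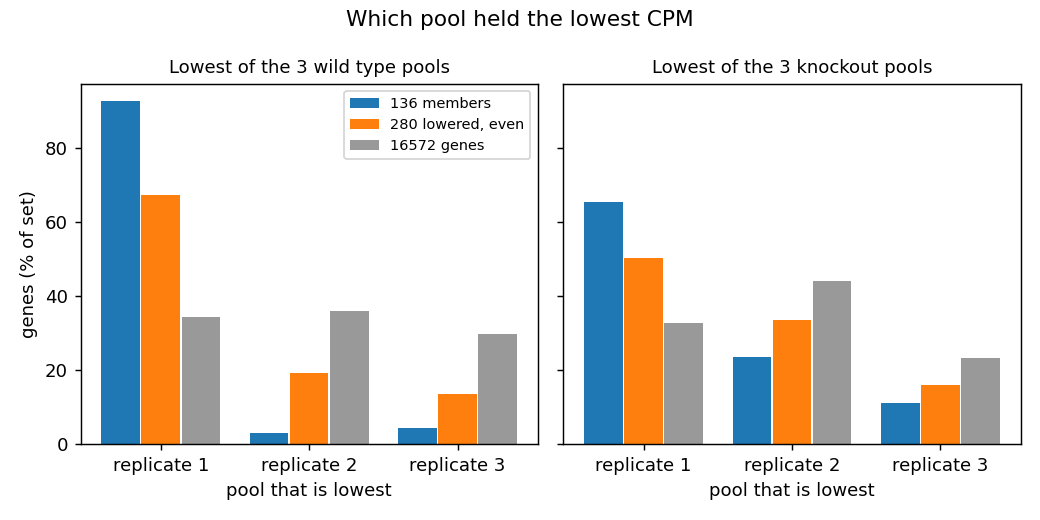
Percentage of genes in which replicate 1, 2 or 3 held the lowest CPM, for the wild type pools (left) and the knockout pools (right), in the 136 genes, the 280 lowered genes with an even wild type and the 16572 genes of at least 2 CPM. Replicate 1 was lowest in 92.6%, 67.1% and 34.4% of these sets in wild type and in 65.4%, 50.4% and 32.7% in the knockout.

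The 280 strongly lowered genes with an even wild type had the same lean to a smaller degree. Wild type replicate 1 was lowest in 188 of them (67.1%), with a median of 0.785 relative to the mean of replicates 2 and 3. Knockout replicate 1 was lowest in 141 (50.4%), at a median of 0.843 of the other 2 knockout pools. Their median loss was 5.58-fold, against 8.26-fold in the 136 genes. In the 280 genes the summed level of replicate 2 was 1.31 times that of replicate 1 in wild type, against 2.77 times in the 136. The rule set the 280 genes apart by a wild type spread below 2-fold. A smaller shortfall of wild type replicate 1 in them was therefore largely fixed in advance, while which pool was lowest was not. The 2-fold limit on spread cut through a continuous range, with 31 genes less than 10% above it and 36 less than 10% below it, the nearest at 2.00154 and 1.99926.

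As a sum, the 136 genes held 0.770% of all counts in wild type replicate 1, 2.14% in replicate 2 and 1.66% in replicate 3. In the knockout they held 0.147%, 0.173% and 0.171% in replicates 1, 2 and 3. The groups did not overlap. Their means were 1.52% ± 0.69 and 0.164% ± 0.014 (SD, n = 3 each), and the SD was larger among the wild type pools, at a higher mean. The genes were chosen for a lower knockout mean and for a wild type spread. Both contrasts were therefore largely fixed in advance and are description. The first 10 genes made up 45.0% to 54.0% of the sum in the wild type pools. Outside those 10, the sum in replicate 2 was still 2.32 times, and in replicate 3 1.91 times, that in replicate 1. In RNA from whole embryos, fewer cells of a type and less RNA per cell cannot be told apart.

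The loss exceeded the spread between wild type pools in nearly every gene, which the rule largely fixed in advance. The ratio of the wild type to the knockout mean had a median of 8.26 (quartiles 5.36 and 14.5), while the ratio of the highest to the lowest wild type pool had a median of 2.59 (quartiles 2.26 and 3.34). The first ratio was larger than the second in 133 of 136 genes and at least 2 times as large in 105. With a loss of at least 4-fold required, a larger first ratio was given for any gene with a spread below 4-fold. A spread of 4-fold or more occurred in 13 genes. Every knockout pool lay below every wild type pool in 133 genes (97.8%), against 35.2% of the 16572 genes, a contrast on which the 136 were selected. The median over all 16572 genes of the wild type to knockout mean ratio was 1.12 on this CPM scale, or 0.16 in log2. This small lean depends on scaling by library totals. TMM scaling factors were 1.04 to 1.07 in the wild type and 0.922 to 0.985 in the knockout libraries, which lowers wild type relative to knockout values.

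Measured from the lowest wild type pool the gap was narrower. The lowest wild type value was at least 2 times the highest knockout value in 118 genes, at least 4 times in 52 and at least 8 times in 17, with a median of 3.22. Over the 16572 genes the median of this ratio was 0.881 (quartiles 0.687 and 1.11). The 136 were selected on this contrast, and the counts at each margin were not made over all genes. Set against the knockout mean, the lowest wild type value was at least 4 times as high in 73 genes. In the other 63 the 4-fold loss thus depended on the higher wild type pools. The exact 95% Poisson intervals of the lowest wild type and the highest knockout pool were apart in 124 of the 136 genes. In 9 others the lowest wild type value was the higher of these but the intervals overlapped, and in 3 the values themselves overlapped. Overlap of 2 such intervals does not by itself place a gap within counting error, and the difference was not tested. These intervals cover counting error only. They were computed for the 136 genes alone, so the share over all genes is not known and nothing is read from the 124.

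**Figure D4:**
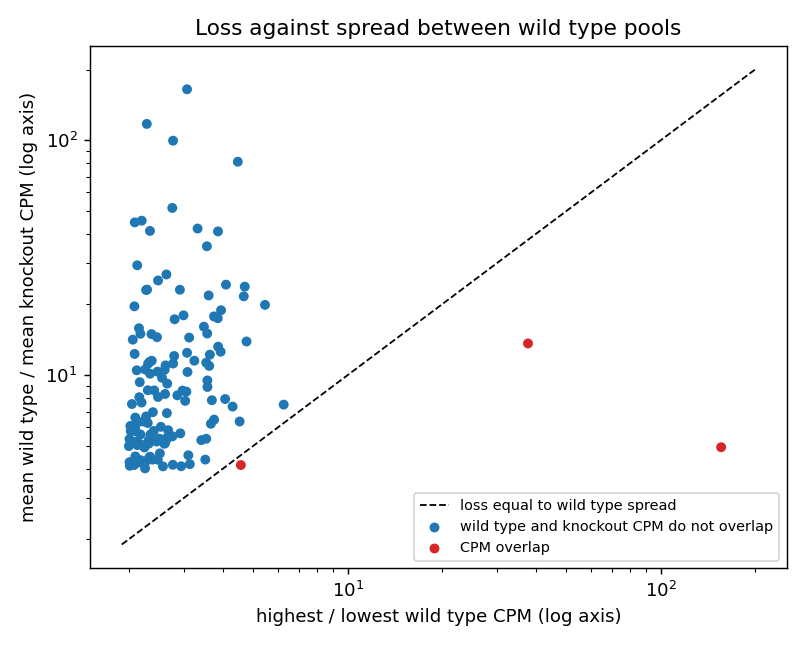
Ratio of mean wild type to mean knockout CPM against the ratio of the highest to the lowest wild type CPM, both on log axes, 1 point per gene, with a dashed line where the 2 are equal. In 133 genes (blue) the loss lies above the line and the groups do not overlap; the 3 genes in red lie below it and overlap.

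The loss was smallest between the pools numbered 1. The ratio of wild type to knockout CPM had a median of 5.65 for number 1, 11.4 for number 2 and 7.78 for number 3. Wild type was at least 4 times the knockout in 99, 129 and 128 of the 136 genes for numbers 1, 2 and 3, against 2.17%, 2.97% and 2.71% of all 16572 genes. Number 1 gave the smallest of the 3 ratios in 98 genes. The numerator for number 1 is wild type replicate 1, the lowest wild type pool in 126 genes, so this in part restates that order. All 3 numbers reached 4-fold in 92 genes. Neither count was made over all genes, and the 136 were selected on these values. Wild type was below the knockout in 1 gene for number 2 and in 0 for numbers 1 and 3. The summed level gave 5.23-fold, 12.4-fold and 9.67-fold for the 3 numbers.

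**Figure D5:**
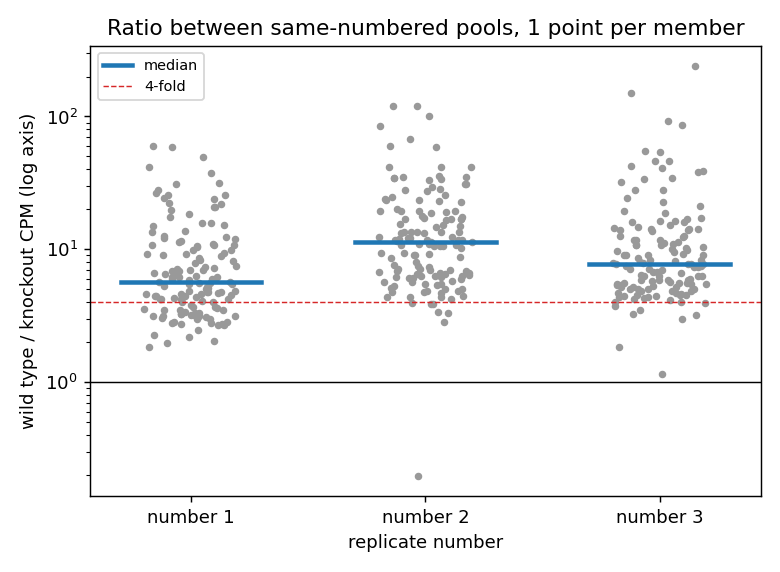
Ratio of wild type to knockout CPM between the pools of the same replicate number on a log axis, 1 point per gene, with the median as a blue bar and 4-fold as a dashed line; the 3 ratios with a knockout value of 0 are not drawn. The medians, over all 136 genes, are 5.65, 11.4 and 7.78 for numbers 1, 2 and 3.

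Read in libraries that did not choose the genes, the loss was again present. With the rule applied to numbers 1 and 3, the 100 genes chosen had a median wild type to knockout ratio of 11.1 between the unused pools numbered 2, and 92 of them reached 4-fold. With numbers 1 and 2, the 101 genes chosen had a median of 7.90 between the pools numbered 3, and 86 reached 4-fold. With numbers 2 and 3, 11 genes were chosen, with a median of 7.15 between the pools numbered 1, and 9 reached 4-fold. Over all 16572 genes, 2.17%, 2.97% and 2.71% reached 4-fold between the pools numbered 1, 2 and 3. Dropping the condition on unevenness, 459 genes were chosen on numbers 2 and 3, of which 301 (65.6%) reached 4-fold between the pools numbered 1. Between the pools numbered 2 it was 342 of the 388 genes chosen without them (88.1%). Between the pools numbered 3 it was 332 of 417 (79.6%). Here too the ratio in number 1 was the lowest, with a median of 5.04 against 6.69 in number 2 and 6.11 in number 3 for the genes chosen without each of these. Each such ratio compares 2 libraries and has no test.

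In the edgeR quasi-likelihood fit to the whole table, all 136 genes passed the filter on low counts and 133 were called lower in the knockout, against 18.7% of 18011 genes tested. The genes were selected on this contrast, and nothing is read from that count. With the replicate number as a block 132 were called, beside 4473 genes called lower over the whole table, against 3366 without the block. The genes ranked 2 and 5 by wild type CPM were then no longer called, and the gene ranked 73 was called.

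The 3 genes that overlapped between the groups were the same 3 that edgeR did not call. ENSORLG00000006132, with the widest spread of all, had 747 CPM in wild type replicate 1, 4.78 in replicate 2 and 39.1 in replicate 3, and 102, 24.3 and 34.0 CPM in knockout replicates 1 to 3. Replicate 1 was the highest pool in both genotypes, against the common pattern, and wild type replicate 2 lay below every knockout pool. Its highest and lowest wild type values differed 156-fold, on 16560 and 103 counts, and its mean ratio of 4.93 rested on 1 library. The fitted log2 fold change was -2.15 (standard error 1.95), with the replicate number as a block it was -0.28, and without wild type replicate 1 it was 1.47, in the opposite direction.

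The second overlapping gene, ranked 90 by wild type CPM, was high in wild type replicate 2 only. It had 3.38, 32.6 and 0.865 CPM in wild type replicates 1 to 3, and the knockout replicates had 1.84, 0.388 and 0.475 CPM. The third, ranked 73, kept the common pattern, with 6.63, 30.2 and 24.5 CPM in wild type and 2.48, 5.33 and 7.01 CPM in the knockout. In that gene replicate 1 was the lowest pool of both genotypes, and the overlap consisted of wild type replicate 1 lying just below knockout replicate 3. Both were described after their values had been seen.

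Including the first and second of these, 10 genes departed from the common pattern by having another wild type pool lowest. In 6 of them replicate 3 was lowest and replicate 2 highest, in 3 replicate 2 was lowest and replicate 1 highest, and in 1 replicate 2 was lowest and replicate 3 highest. Apart from ENSORLG00000006132 their wild type means were between 3.30 and 22.8 CPM. Knockout replicate 1 was the lowest knockout pool in 3 of the 10, compared with 86 of the 126 genes (68.3%) with wild type replicate 1 lowest. Over the whole table, 51.6% of the 5702 genes with wild type replicate 1 lowest had knockout replicate 1 lowest too.

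A few genes were close to absent from the knockout. The deepest loss, in the gene ranked 116, went from 57, 114 and 146 counts in the wild type pools to 1, 0 and 1 counts in the knockout pools. Pooled over libraries this was a ratio of 161, with an exact 95% counting interval from 44.1 to 1331. The gene ranked 124 had 62, 158 and 49 counts in the wild type pools and 3, 0 and 0 in the knockout pools, a pooled ratio of 90.8 with an interval from 30.7 to 443. These were the 2 genes with a knockout library at 0, where 3 counts, the limit that a count of 0 allows, correspond to 0.145 CPM in knockout replicate 2 and 0.158 CPM in replicate 3.

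The deepest loss with more counts was in the gene ranked 37. It had 40.6, 92.7 and 75.4 CPM in wild type replicates 1 to 3 and 0.684, 0.775 and 0.316 CPM in the knockout. The loss was 118-fold, while the wild type pools differed 2.28-fold, so the lowest wild type pool was still 52.3 times the highest knockout pool. At the other limit of the rule, 15 genes had a loss less than 10% above 4-fold, the nearest at 4.01, and 19 genes missed it by less than 10%, the nearest at 3.96. At the limit on level, 2 genes lay less than 10% above 2 CPM and 4 less than 10% below it, the nearest at 2.01 and 1.98 CPM.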

How the data were processed

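RNA was measured in 6 libraries, 3 pools per genotype, each made from 500 ng of total RNA with a TruSeq kit, per the labels' protocols. The deposited table holds raw counts per Ensembl gene ID, made by the authors, with no normalization. STAR is named as the aligner and mm10, a mouse build, as the genome, per the submitters' processing notes, although the IDs are of the medaka series. The sources used here do not give the counting tool, strand use or treatment of shared reads, so paralogs and overlapping genes could not be marked. Columns were assigned by the library code in each sample's description, and 0 further columns held sample values.

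CPM was the count divided by the column sum. The 136 genes, the comparisons and the gene sets were chosen with earlier results of these data known. Without symbols, the lists of tissue markers and of trafficking genes were not used, and the naming rule allowed 2 IDs, the gene of highest mean wild type CPM and the gene of widest wild type spread; other genes are given by rank of mean wild type CPM.

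The whole table was fitted with edgeR 4.0.16 in R 4.3.3 (filterByExpr, minimum count 10, TMM, robust quasi-likelihood test, no covariates, Benjamini-Hochberg adjusted p under 0.05, 18011 genes tested), with standard errors from the fold change and the root of F. Both the rule and the fit were tested on simulated data. Same-numbered libraries deviated together from their group means (r = 0.36, 0.43 and 0.35 for numbers 1, 2 and 3 across genes, log2 CPM with a prior count of 2), so the replicate number was used as a block in an alternative; the pairing comes from the titles and this check, as no label says what a number marks. Other alternatives were RLE factors, no filter, DESeq2 1.42.0, other limits of the rule and leaving out each library.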

Additional observations from a re-analysis of the deposited data

How the results depend on the processing

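CPM from TMM or RLE factors, another minimum CPM, no filter and DESeq2 left the counts within 1.5 times and the median ratios close to the values reported. TMM and RLE factors kept 115 and 114 of the 136 genes, with replicate 1 lowest in 108 of 117 and 107 of 116. Wild type replicate 3 was highest in 39 of 117 and 37 of 116, against 55 of the 136, so that count moved with library scaling. The limits of the rule moved the counts and median ratios by construction. With the knockout at most 1/8 of wild type there were 71 genes, 66 with wild type replicate 1 lowest, 20 with replicate 3 highest, 70 without overlap and a median loss of 14.2-fold; at 1/3, replicate 3 was highest in 88. With a spread of at least 1.5-fold there were 267 genes, 229 with replicate 1 lowest, 133 with replicate 3 highest and 264 without overlap. At 3-fold there were 44, of which 40, 8 and 41 respectively, with a median loss of 11.9-fold.

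Leaving out 1 library gave 12 to 152 genes, 91 to 140 with wild type replicate 1 lowest, 2 to 94 with replicate 3 highest, 11 to 150 without overlap and a median loss of 7.27- to 11.9-fold. The lowest counts came without wild type replicate 1 (12 genes, 11 without overlap, 2 with replicate 3 highest, median loss 11.9-fold), and 94 came without replicate 2, where 2 wild type pools are left to order. The median wild type spread was 2.40 to 2.65. Of the 136 genes, edgeR called 122 to 134 lower, and 2486 to 3194 over the table. With the replicate block it called 132 of the 136 and 4473 over the table, against 133 and 3366 without it. With 1 library left out, the log2 fold change of ENSORLG00000006132 ran from -3.04 to 1.47, the latter, without wild type replicate 1, in the opposite direction; with the replicate block it was -0.28. Genes chosen without a replicate number had median knockout to wild type ratios in it of 0.140, 0.0898 and 0.127 for numbers 1, 2 and 3. In the 136 these were 0.177, 0.0874 and 0.128. The value for number 1 rests on 11 genes. Depth limited the knockout values, with a median over the genes of 39 to 55 counts per library.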
